A study of Mus musculus with 22 samples.

Results

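The 9 transcripts described here encode liver proteins of the insulin-like growth factor (IGF) and growth hormone axis: the binding proteins Igfbp1, Igfbp2, Igfbp3 and Igfbp4, the acid-labile subunit Igfals, the hormone Igf1, the growth hormone receptor Ghr, and the feedback inhibitors Socs2 and Socs3. They were chosen by gene symbol in the array's annotation, and all 9 were found among 19505 named genes on 22206 features, with 1 feature each. The livers came from 22 male mice, aged 3 to 8 months, with a global knockout of adiponectin, a hormone of fat cells (B6;129-Adipoqtm1Chan/J on a C57BL/6J background). The mice were kept in groups with 12 h of light and 12 h of dark and free access to chow, and livers were collected at 4 h intervals. Each liver was measured on its own Clariom S array. Times are zeitgeber times (ZT), in hours after lights on, with 3 arrays each for ZT6 and ZT18 and 4 each for ZT2, ZT10, ZT14 and ZT22. Lights were on at ZT2, ZT6 and ZT10 and off at the other three. Every animal lacked the hormone from birth in all tissues, and no wild-type liver was used here. The comparisons therefore concern times of day and single livers within the knockout.

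The liver is the main source of circulating IGF1. Growth hormone, which male mice release in pulses, acts on hepatocytes through its receptor, the kinase JAK2 and the factor STAT5, and so induces Igf1, Igfals, Socs2 and Cish. In blood most IGF1 is held in a complex with IGFBP3 and the acid-labile subunit, which prolongs its life. IGFBP1 binds a smaller share; its gene is repressed by insulin and induced by fasting, glucagon and glucocorticoids, and a FOXO1-binding insulin response element is known in its promoter. SOCS3, induced by interleukin-6 through STAT3, and SOCS2 both restrain cytokine and growth hormone signalling.

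The promoter of Igfbp1, the transcript with the widest daily course here, is shown because such an element is known in this promoter. The sequence gives the 250 bases before the RefSeq start, chr11:7197537-7197786 on the plus strand of GRCm38.p6, with capitals at the letters CAAAACA, the core letters of insulin response elements.
Igfbp1 promoter: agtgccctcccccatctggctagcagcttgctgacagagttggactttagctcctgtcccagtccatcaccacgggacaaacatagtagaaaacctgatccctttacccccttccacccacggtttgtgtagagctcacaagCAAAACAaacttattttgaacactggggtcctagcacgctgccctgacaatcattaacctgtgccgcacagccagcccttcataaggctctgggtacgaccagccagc
This match begins at position -108 from the start. The second sequence, from Igfals, is shown for the letters TTCNNNGAA, the spaced palindrome that STAT factors bind. It lies at chr17:24878163-24878191 on the plus strand, with the match in capitals, which begins at -58 from the second of 3 RefSeq starts of this gene.
Igfals window: ctgccaggtgTTCCTAGAAgaggccctgg

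RefSeq promoters, 250 bases before to 50 after a start, were matched for 8 of the 9 genes, 12 promoters in all. They were searched on both strands for CAAAACA, for the forkhead letters GTAAACA, for TTCNNNGAA and for the E-box CACGTG, which clock factors bind. CAAAACA was found in Igfbp1 and in no other of the 12, and in 6.28% of 32851 mouse promoters of this length. TTCNNNGAA was found in 2 starts of Igfals and in Socs3, and in 8.3% of all promoters. GTAAACA was found, on the minus strand, in the second Igfals start (3.65% of all promoters), and CACGTG in 1 of 2 Igfbp2 starts (7.15% of all). The promoters of Igfbp3, Igfbp4, Igf1 and Ghr held none of the 4. A match describes letters, not a bound site.

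Places of genes are those of RefSeq in GRCm38.p6. Values are on a log2 scale, read as such from their range since the base is not stated, so a difference of 1 is a doubling. Levels of different genes come from different probes and are not set against each other. The lower quartile of an array lay between 3.67 and 3.91, a level that cannot be told from background. Hepatocyte markers were high in every array, with a mean over 8 genes between 18.22 and 18.52. Adipoq, the targeted gene, lay between 3.30 and 4.69, which checks the genotype little, as liver makes little of it and the place of the probes is not known. In 5 arrays, ZT6b, ZT6c, ZT14b, ZT14d and ZT22a, Tff3, which encodes a secreted trefoil peptide, lay between 10.35 and 13.63, against 2.31 to 4.73 in the other 17. Those 5 are called Tff3-high here, and values without them stand beside the results they touch.

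Of the 9 transcripts, 2 had a 24 h rhythm in the moderated F test of a fitted cosine (Igfbp1 and Igfbp4), where 7.62% of all 22206 features were called at an adjusted p of 0.05. The same 2 differed among the 6 times in a test that assumes no shape (6.14% of all features called). Igfbp1 alone differed between the light and the dark phase (5.27% of all called). The median 24 h amplitude of the 9, measured from the middle of the curve to its peak, was 0.18 in log2 units, beside 0.16 over all features.

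**Figure D1:**
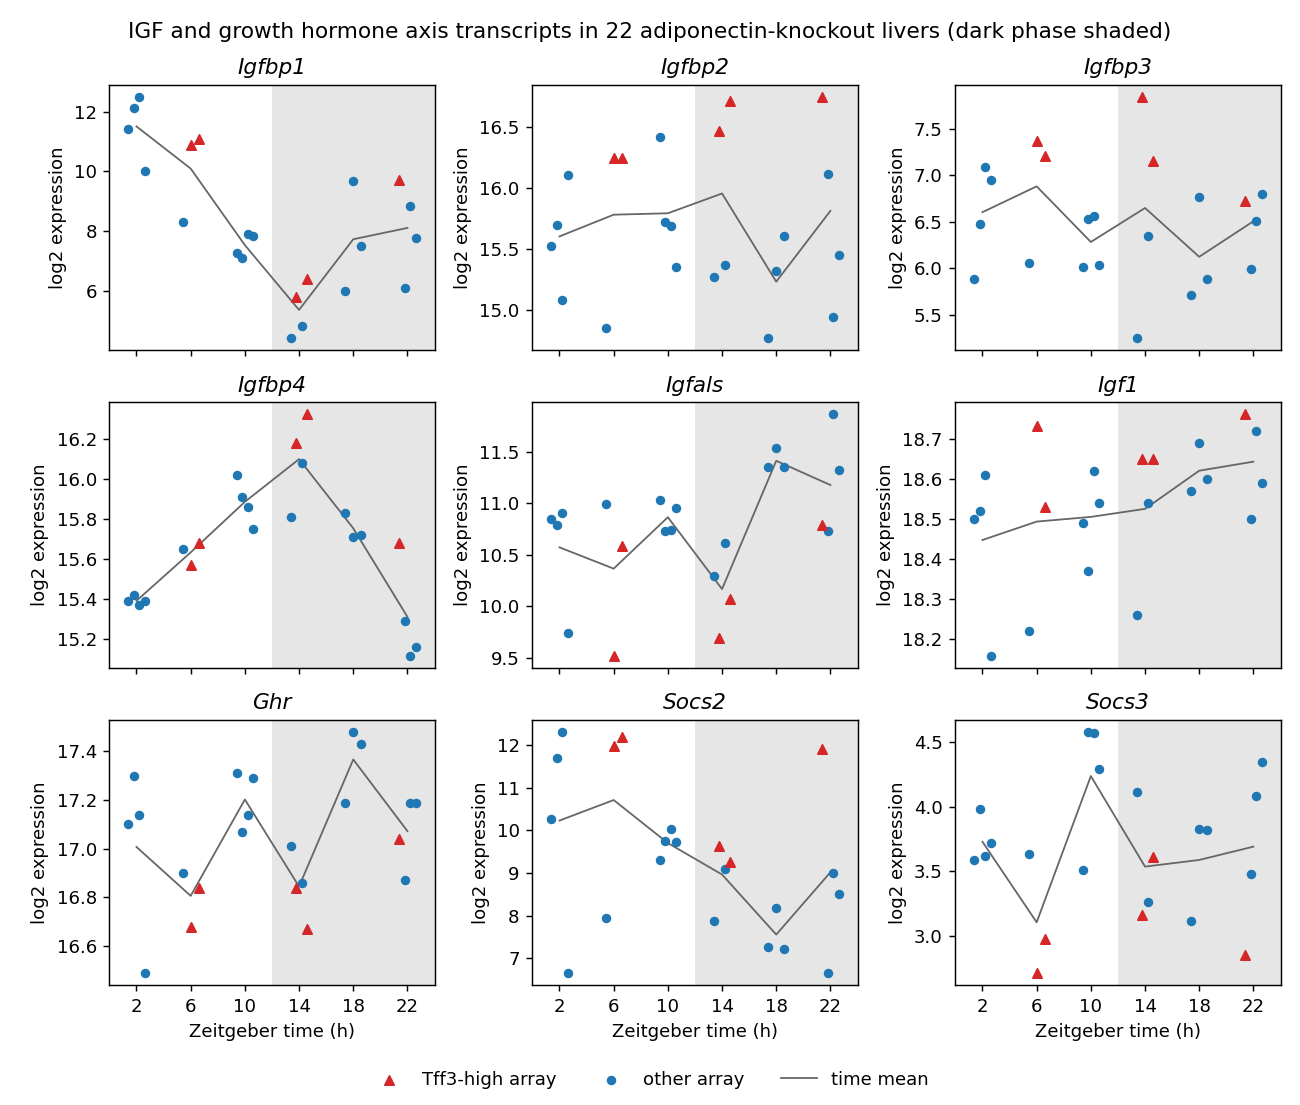
Log2 expression (vertical axes, scaled for each transcript) of the 9 transcripts against zeitgeber time in hours (horizontal axis), with the dark phase shaded. Red triangles are the 5 Tff3-high arrays, blue dots the other 17, and lines join the time means; Igfbp1 falls across the light phase to its lowest values at ZT14, and Igfbp4 has its highest there.

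Igfbp1, the insulin-repressed binding protein (chr11:7197787-7202546), was highest early in the light phase and lowest just after lights off. At ZT2 it measured 11.42, 12.11, 12.49 and 10, at ZT6 8.32, 10.90 and 11.07, and at ZT10 7.28, 7.12, 7.91 and 7.84. In the dark phase it measured 4.43, 5.82, 4.82 and 6.42 at ZT14, 6.00, 9.68 and 7.52 at ZT18, and 9.73, 6.11, 8.84 and 7.77 at ZT22. All 4 arrays of ZT14 lay below every array of ZT2, ZT6 and ZT10, and every array of ZT2 lay above all arrays of ZT10, ZT14, ZT18 and ZT22. The time means ran in the order ZT2 (11.51 ± 1.10, SD, n = 4), ZT6 (10.10 ± 1.54, n = 3), ZT22 (8.11 ± 1.56, n = 4), ZT18 (7.73 ± 1.85, n = 3), ZT10 (7.54 ± 0.40, n = 4) and ZT14 (5.37 ± 0.91, n = 4). Neighbours in this order overlapped except ZT10 and ZT14. From its lowest to its highest array Igfbp1 spanned 267-fold.

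The fitted cosine of Igfbp1 had an amplitude of 2.66 ± 0.35 (SE, n = 22) and a peak at ZT2.88 ± 0.508 h, a 39.8-fold span from trough to peak (limma, adjusted p = 2.99e-05). The difference among the 6 times had an adjusted p of 7.59e-05. The light-phase mean was 9.71 and the dark-phase mean 7.07, a difference of 2.64 ± 0.45 with an adjusted p of 0.000746. The phases were not 2 separate levels, since the lowest light-phase time, ZT10, had a mean of 7.54 and the highest dark-phase time, ZT22, a mean of 8.11. All 3 calls held without the 5 Tff3-high arrays, where the span was 35.5-fold (adjusted p = 0.00123). The fitted span moved to 22.1-fold without the arrays of ZT2, 26.8-fold without ZT14 and 77.0-fold without ZT18, and the calls among the times and between the phases were lost when ranks replaced the values (adjusted p = 0.147 and 0.0803).

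Between neighbouring times none of the 9 transcripts passed the test. The shares of all features called were 0.392% for ZT6 minus ZT2, 0.639% for ZT10 minus ZT6, 1.72% for ZT14 minus ZT10, 0.545% for ZT18 minus ZT14, 0.0811% for ZT22 minus ZT18 and 0.131% for ZT2 minus ZT22. At an unadjusted p under 0.05 the numbers of the 9 in the same 6 steps were 0, 3, 4, 4, 1 and 1, where 10.3%, 11.5%, 13.3%, 10%, 5.14% and 9.99% of all features had such a p. The difference nearest to the threshold was that of Igfbp1 for ZT2 minus ZT22, 3.39 ± 0.74 (adjusted p = 0.0687). Without the 5 Tff3-high arrays it was 3.93 with an adjusted p of 0.0137, and without ZT22a alone it was also past the threshold. Igfbp1 differences of -2.56 ± 0.80 for ZT10 minus ZT6, -2.17 ± 0.74 for ZT14 minus ZT10 and 2.36 ± 0.80 for ZT18 minus ZT14 had adjusted p-values of 0.161, 0.157 and 0.245. The first of these passed without ZT6a (-3.45, adjusted p = 0.0375) and was -0.78 without the 5 Tff3-high arrays (adjusted p = 0.847).

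**Figure D2:**
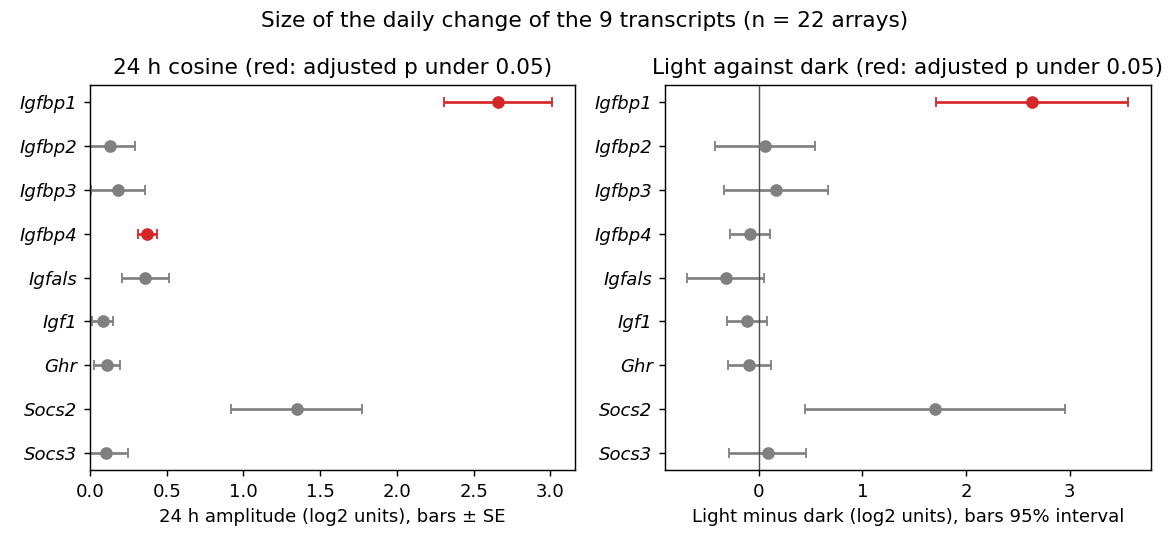
Left, amplitude of the fitted 24 h cosine in log2 units with its SE; right, mean of the light-phase times minus mean of the dark-phase times in log2 units with its 95% interval (n = 22 arrays, red where the adjusted p was under 0.05). Igfbp1 has the largest amplitude, 2.66, and Igfbp4 a small one, 0.37, with a narrow error.

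Igfbp4, a binding protein that hepatocytes secrete (chr11:99040005-99052655), had a small daily course in the opposite sense. It measured 15.39, 15.42, 15.37 and 15.39 at ZT2, 15.65, 15.57 and 15.68 at ZT6, 16.02, 15.91, 15.86 and 15.75 at ZT10, 15.81, 16.18, 16.08 and 16.32 at ZT14, 15.83, 15.71 and 15.72 at ZT18, and 15.68, 15.29, 15.12 and 15.16 at ZT22. Every array of ZT2 lay below every array of ZT6, ZT10, ZT14 and ZT18, while ZT2 and ZT22 overlapped. The cosine had an amplitude of 0.37 ± 0.06 (SE, n = 22), a peak at ZT12.6 ± 0.692 h and a span of 1.68-fold (adjusted p = 0.000688). The peak lay close to lights off, and the phase means were 15.64 in light and 15.72 in dark, a difference of -0.08 (95% interval -0.28 to 0.11) that did not pass. Within a time Igfbp4 varied little, with an SD of 0.16, at percentile 1.49 of all features. The rhythm held without the 5 Tff3-high arrays (1.62-fold, adjusted p = 0.00564), and the difference among times (adjusted p = 0.00853) was lost without the arrays of ZT14 (adjusted p = 0.0967) and with ranks (0.147). The mean of the hepatocyte markers was lowest at ZT2 (18.26) and highest at ZT14 (18.44), and its part in the result was not tested. Its members were not alike. Hnf4a ran from a mean of 12.81 at ZT2 to 13.67 at ZT14, and Tat had a 24 h rhythm (limma, adjusted p = 0.0275). Alb stayed between 19.56 and 19.87 over all arrays, and Ttr between 19.44 and 19.71. The highest mean of Igfbp4 was also at ZT14 (16.10 ± 0.22, SD, n = 4), and its lowest at ZT22 (15.31 ± 0.26, n = 4). In whole liver, fewer cells of a type and less RNA per cell cannot be told apart.

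Igfbp2 and Igfbp3 were not called in any test. Igfbp2, another hepatocyte product (chr1:72824480-72852474), ranged from 14.77 to 16.75 with a median of 15.65, its time means lay between 15.23 (ZT18) and 15.96 (ZT14), and all times overlapped. Its fitted amplitude was 0.13 ± 0.16 (adjusted p = 0.876), and light minus dark was 0.06 (95% interval -0.42 to 0.54). Igfbp3, which in liver is known mainly from non-parenchymal cells and lies beside Igfbp1 (chr11:7206086-7215498), ranged from 5.25 to 7.84. Its amplitude was 0.18 ± 0.18 (adjusted p = 0.811), and light minus dark was 0.16 (95% interval -0.34 to 0.67). Both varied more between livers of one time than most features, with within-time SDs of 0.63 and 0.66, at percentiles 98.1 and 98.4. The 2 highest Igfbp3 values, 7.84 in ZT14b and 7.37 in ZT6b, were in Tff3-high arrays. The median over arrays of the mean of 8 stellate cell markers was 8.03 in the Tff3-high arrays and 7.46 in the others. For 8 Kupffer cell markers it was 7.46 and 7.44, and for 8 sinusoidal endothelial markers 9.61 and 9.60. These medians did not take the time into account. Of the stellate cell markers, Col3a1 alone was higher in all 5 Tff3-high arrays than in the others of their time. The part of cell types in the values of Igfbp2 and Igfbp3 was not tested.

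Igfals, the acid-labile subunit (chr17:24877844-24882011), was highest in the later dark phase. It measured 10.85, 10.79, 10.90 and 9.74 at ZT2, 10.99, 9.52 and 10.58 at ZT6, 11.03, 10.73, 10.74 and 10.95 at ZT10, 10.29, 9.69, 10.61 and 10.07 at ZT14, 11.35, 11.53 and 11.35 at ZT18, and 10.79, 10.73, 11.86 and 11.32 at ZT22. The 3 arrays of ZT18 lay above every array of ZT2, ZT6, ZT10 and ZT14, and the 4 of ZT14 lay below every array of ZT10, ZT18 and ZT22. ZT18 minus ZT14 was 1.25 ± 0.32, with an adjusted p of 0.0835. The difference among the 6 times had an adjusted p of 0.0618 and the cosine, with a fitted peak at ZT20.3 ± 1.59 h, one of 0.311. Igfals was thus near the threshold without passing it. It passed among the times when 1 of ZT2d, ZT6a, ZT6b, ZT14c or ZT22b was left out, with adjusted p-values between 0.0251 and 0.05, and the step passed without ZT2d, ZT6b or ZT14c, with the lowest at 0.0381. It did not pass among the times without the 5 Tff3-high arrays (adjusted p = 0.179) or with ranks (0.184), nor did the step (0.96 and an adjusted p of 0.325 without those arrays). The low values of ZT6b (9.52) and ZT14b (9.69) were in Tff3-high arrays. Without those 5 the ZT18 mean was 11.41 and the ZT14 mean 10.45.

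Igf1 itself (chr10:87858265-87937047) kept a narrow range. It ranged from 18.16 in ZT2d to 18.76 in ZT22a with a median of 18.56, and the time means lay between 18.45 (ZT2) and 18.64 (ZT22) with every pair of times overlapping. Its amplitude was 0.08 ± 0.07 (adjusted p = 0.736), and light minus dark was -0.11 (95% interval -0.31 to 0.08). The within-time SD of 0.16 was at percentile 2.06 of all features. Igf1 lay near the top of the scale, where the highest value of any feature was 19.87, and the part of this in its narrow range was not tested.

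Ghr, which encodes the receptor (chr15:3317755-3583352), had its lowest time means at ZT6 (16.81 ± 0.11, SD, n = 3) and ZT14 (16.85 ± 0.14, n = 4) and its highest at ZT10 (17.20 ± 0.12, n = 4) and ZT18 (17.37 ± 0.16, n = 3). The arrays measured 16.90, 16.68 and 16.84 at ZT6, 17.31, 17.07, 17.14 and 17.29 at ZT10, 17.01, 16.84, 16.86 and 16.67 at ZT14, and 17.19, 17.48 and 17.43 at ZT18. The ranges of ZT10 and ZT18 both lay above those of ZT6 and ZT14. The difference among the times did not pass the test (adjusted p = 0.250), nor did a 24 h cosine (amplitude 0.11 ± 0.09, adjusted p = 0.720). The means of ZT2 and ZT22 lay between, at 17.01 and 17.07, with 16.49 in ZT2d the lowest array of all.

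Socs2, a growth hormone-induced inhibitor of the receptor (chr10:95383903-95417321), differed more between livers of one time than between times. It measured 10.26, 11.69, 12.31 and 6.67 at ZT2, 7.96, 11.99 and 12.19 at ZT6, 9.30, 9.75, 10.04 and 9.73 at ZT10, 7.87, 9.63, 9.10 and 9.27 at ZT14, 7.26, 8.19 and 7.23 at ZT18, and 11.90, 6.66, 9.0 and 8.52 at ZT22. The 4 arrays of ZT10 and the 3 of ZT18 were close together, whereas ZT2, ZT6 and ZT22 each held both high and low livers. The range within a time was 5.64 at ZT2, 4.23 at ZT6 and 5.24 at ZT22, against 0.74 at ZT10, 1.76 at ZT14 and 0.96 at ZT18. Its within-time SD of 1.72 was the 8th largest of 22206 features, and over all arrays it spanned 50.2-fold. Without the 5 Tff3-high arrays the SD was 1.47.

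The fitted 24 h amplitude of Socs2 was 1.35 ± 0.43 (SE, n = 22) with a peak at ZT5.52 ± 1.11 h, and it did not pass (adjusted p = 0.117). Light minus dark was 1.70 ± 0.61, from means of 10.22 and 8.52, with an adjusted p of 0.110 and a 95% interval of 0.44 to 2.96 before adjustment for the number of features. Both tests passed when 1 of 3 arrays was left out. Without ZT2d, ZT6a or ZT22a the rhythm had adjusted p-values of 0.0215, 0.0347 and 0.0432. Light minus dark was 2.10 without ZT2d (adjusted p = 0.0181), 2.16 without ZT6a (0.0276) and 2.02 without ZT22a (0.0353). Neither test passed without all 5 Tff3-high arrays, where the amplitude was 1.26 (adjusted p = 0.2) and light minus dark also 1.26 (0.309). Of the time means, only ZT10 and ZT18 did not overlap.

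Some other genes known to respond to growth hormone also varied widely between livers of one time, with within-time SDs of 1.83 for Bcl6, 1.63 for Onecut1 and 1.03 for Cish. Others varied less. The within-time SD was 0.46 for Igfals and 0.16 for Igf1, and Cyp2u1, another growth hormone-dependent gene, ran only from 11.56 to 12.47 over all arrays. Cish, an inhibitor of the same pathway induced through STAT5, Onecut1, a hepatocyte factor induced by growth hormone, and Bcl6, a repressor that growth hormone lowers, were compared with Socs2 after their values had been seen, so the likeness is a description. In ZT2d, the lowest Socs2 array of its time (6.67), Cish was 3.73 and Onecut1 7.65, each the lowest of ZT2, and Bcl6 was 10.67, the highest. In ZT22b, again the lowest in Socs2 (6.66), Cish was 4.31 and Onecut1 10.61, the lowest of ZT22, and Bcl6 10.09, the highest. In ZT22a the pattern was the reverse, with Socs2 at 11.90, Cish at 5.90, Onecut1 at 14.01 and Bcl6 at 4.40. At ZT22 the liver highest in Socs2 thus had the highest Cish and Onecut1 and the lowest Bcl6. At ZT2 the pattern was that of ZT2d against the other livers. There ZT2c, highest in Socs2 (12.31), had Cish at 6.71, below ZT2a (7.09) and ZT2b (7.72). The likeness did not hold at each time, since in ZT6c, the highest Socs2 array of ZT6, Cish was the lowest of its time (5.07).

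Over the 6 times, the array lowest in Socs2 was also lowest in Onecut1 at 5, in Cish at 4 and in Igfbp1 at 4, and was highest in Bcl6 at 3. The array highest in Socs2 was highest in Igfbp1 at 5, in Onecut1 at 3 and in Cish at 2, and lowest in Bcl6 at 2. Matches in the other direction were also present. ZT10a, ZT14a and ZT18c, lowest in Socs2 at their times, were also lowest in Bcl6, and ZT14a was highest in Cish. ZT10c and ZT18b, highest in Socs2, were also highest in Bcl6, and ZT10c was lowest in Onecut1. With 3 or 4 arrays per time some matches come by chance, and the share over all features was not computed. By the root mean square distance of the 22 deviations from the time means, the gene most like Socs2 was Igfbp1 (0.83 log2 units, where the deviations of Socs2 had a root mean square of 1.47), followed by Onecut1 (0.86) and Adgrf1 (0.88). Igfbp1 and Adgrf1, like Socs2, were higher in all 5 Tff3-high arrays than in the other arrays of their time. Over the other 17 arrays, a comparison added after seeing the data, Alas1 (0.57), Jun (0.64) and Arid5b (0.66) were nearest, where Socs2 had 1.18, and Onecut1 (0.76), Igfbp1 (0.80) and Adgrf1 (0.81) held ranks 10, 14 and 15. The genes nearest to Socs2 thus depended on those 5 arrays. Over all 22 arrays and with the sign of Socs2 turned, the nearest were Nr1i3 (0.98), Cyp2c54 (1.05) and Bcl6 (1.07). Bcl6, Onecut1, Igfbp1 and Cish held ranks 4, 11, 42 and 84 of all features by within-time SD.

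**Figure D3:**
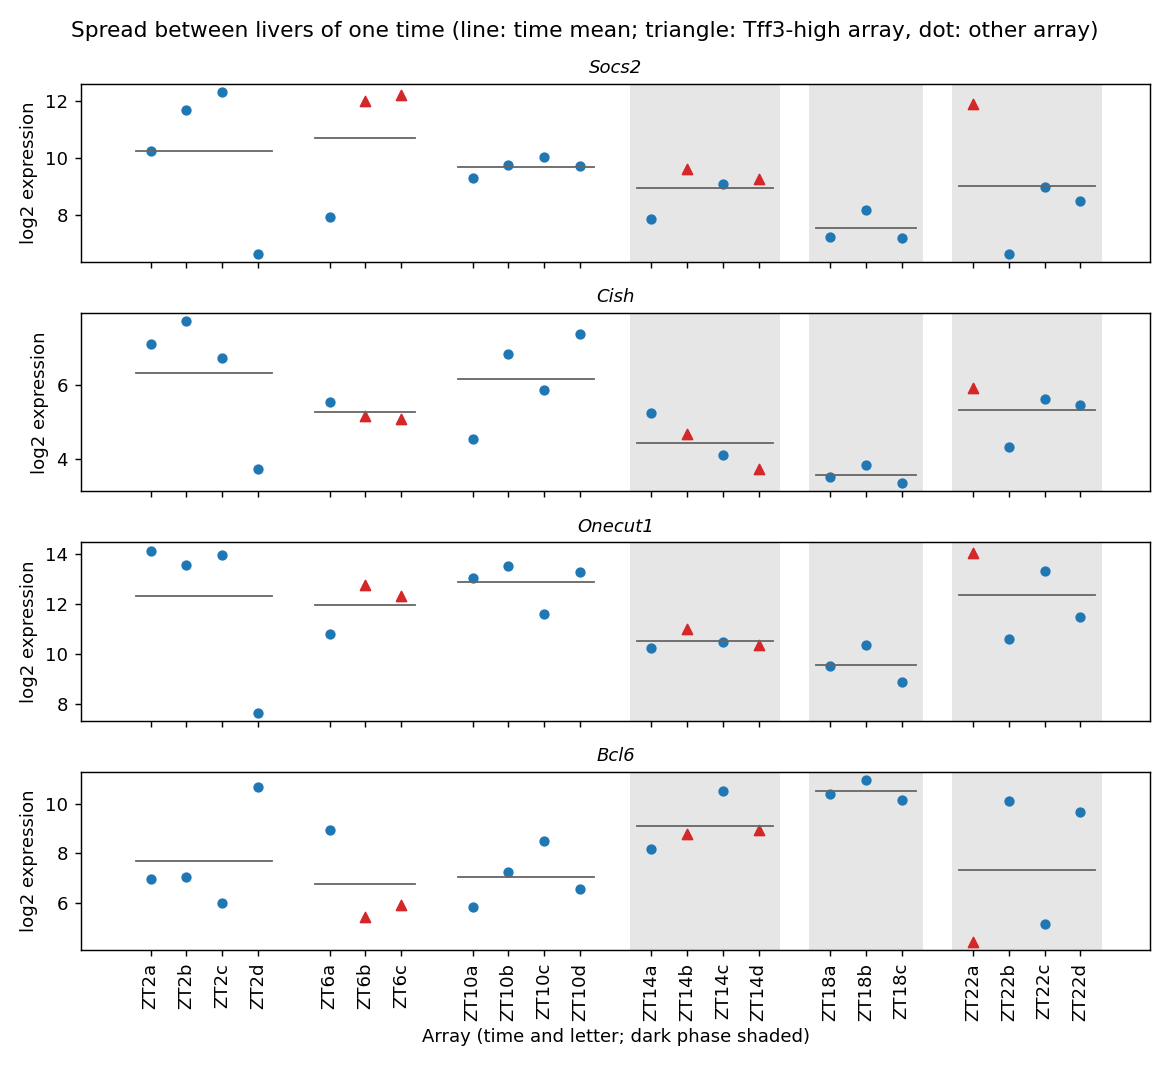
Log2 expression (vertical axes) of Socs2, Cish, Onecut1 and Bcl6 in each of the 22 arrays, ordered by time and letter, with dark-phase times shaded, lines at the time means, red triangles for the 5 Tff3-high arrays and blue dots for the others. At ZT2 and ZT22 the arrays lowest in Socs2 (6.67 in ZT2d and 6.66 in ZT22b) are the lowest in Cish and Onecut1 and the highest in Bcl6.

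Socs3, the interleukin-6-induced inhibitor (chr11:117966079-117970336), lay near background. It ranged from 2.71 to 4.58, and 13 of the 22 values did not exceed the lower quartile of all features on the same array. The values at ZT6 were 3.63, 2.71 and 2.97, and those at ZT10 were 3.51, 4.58, 4.57 and 4.29. ZT10 minus ZT6 was 1.13 ± 0.32, with an adjusted p of 0.118, and this passed without ZT6a (1.40, adjusted p = 0.0477). Without the 5 Tff3-high arrays it was 0.61 (adjusted p = 0.654). Neither the cosine (amplitude 0.10 ± 0.14) nor light minus dark (0.09, 95% interval -0.29 to 0.46) passed, and at these levels a change could hardly be seen.

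The 5 Tff3-high arrays stood apart in several of the 9. Igfbp1, Igfbp2, Igf1 and Socs2 were higher in all 5 than in every other array of the same time, 4 of the 9, where 4.76% of all features were so placed. None of the 9 was lower in all 5, where 3.64% of all features were. The arrays were picked by their Tff3 values, so these counts are no test. Because both other arrays than ZT6a at that time were Tff3-high, the ZT6 mean without the 5 arrays rests on 1 liver: it was 8.32 for Igfbp1 and 7.96 for Socs2, beside 10.10 and 10.71 with them. At ZT22 the Socs2 mean was 8.06 without the Tff3-high array and 9.02 with it. The median over arrays of the mean of 4 adipocyte markers was 5.47 in the Tff3-high arrays and 4.84 in the others, and its part in these values was not tested. These medians did not take the time into account, and the list was uneven. Cidec ran from 4.81 to 9.90 with its highest mean at ZT14 (8.30), while Plin1 (2.89 to 4.27) and Lep (2.54 to 4.38) lay near background. Of the 4, Fabp4 alone was higher in all 5 Tff3-high arrays than in the others of their time.

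The genes whose 6 time means ran most like those of Igfbp1, each centred on its own mean, were Egr1, an immediate early transcription factor, Gm4952, and Depp1, a FOXO target. Their root mean square distances were 0.98, 1.07 and 1.16 log2 units, where the course of Igfbp1 itself had 1.96. Egr1 peaked at ZT3.51 with a fitted 21.5-fold span (adjusted p = 0.00237), Gm4952 at ZT2.56 with 7.50-fold (0.0013) and Depp1 at ZT1.63 with 9.04-fold (0.021). None of the 3 followed Igfbp1 throughout: Egr1 was low from ZT10 on, with means of 6.03, 6.49, 6.16 and 6.90 at ZT10, ZT14, ZT18 and ZT22. Depp1 and Gm4952 had their lowest means at ZT14, 6.62 and 9.96, as Igfbp1 did. Depp1 was highest at ZT18, with 11.14 beside 10.99 at ZT2, where Igfbp1 had 7.73 and 11.51. The means of Gm4952 at all times but ZT14 lay between 12.29 and 13.80.

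**Figure D4:**
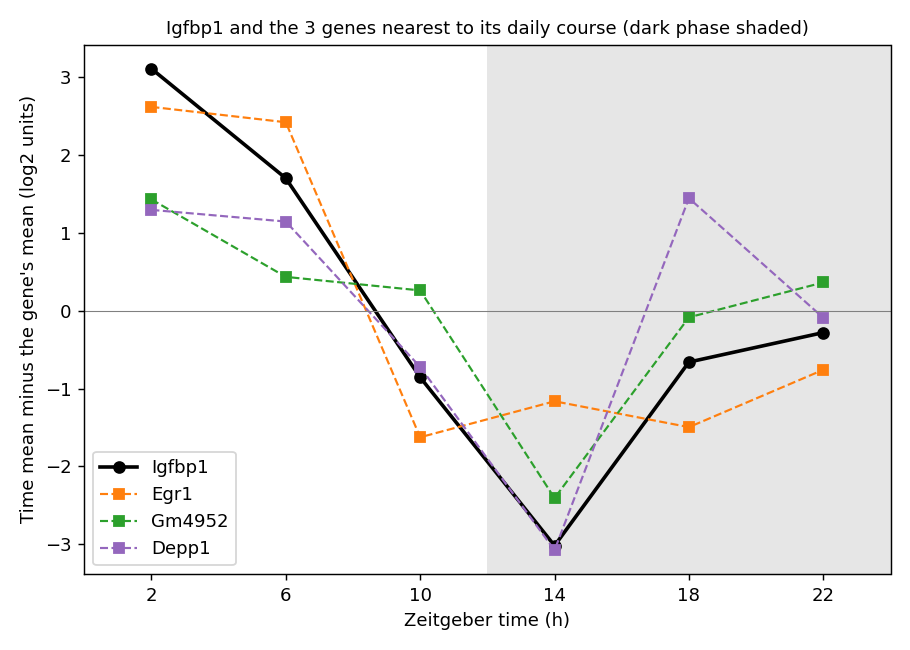
Time means of Igfbp1 (black) and of the 3 genes nearest to its course, each minus the gene's own mean over the times, in log2 units (vertical axis) against zeitgeber time in hours, with the dark phase shaded. Igfbp1, Gm4952 and Depp1 share a low point at ZT14, while Egr1 reaches its low level at ZT10. Depp1 is highest at ZT18.

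Other genes of the pathways were taken from lists chosen with earlier results of these data known. Of all features, 2.02% were called higher in light and 3.25% higher in dark, beside which the counts by phase below are to be read. Of 12 other IGFs, IGF receptors, binding proteins and their regulators, 0 had a 24 h rhythm by limma at an adjusted p of 0.05, and 1 had an unadjusted p under 0.05, where 21.1% of all features did. This was Igf2r, the scavenging receptor of IGF2 (1.44-fold, unadjusted p = 0.0146 and adjusted p = 0.115). The median amplitude of the list was 0.18. Igf1r, the signalling receptor, known to be scarce in hepatocytes, ranged from 3.88 to 4.93, close to background.

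Of 18 measured genes of growth hormone receptor signalling, 1 was rhythmic, Stat5b, which encodes the main transcription factor of the pathway in liver. It peaked at ZT1.21 ± 0.673 h with a 2.01-fold span (adjusted p = 0.000562). Cish had a fitted 4.57-fold span with a peak at ZT4.93, near that of Socs2, and missed the 24 h threshold (adjusted p = 0.0568), but was higher in light than in dark by 1.47 ± 0.37 (adjusted p = 0.0194). Stat5a, with a fitted peak at ZT0.482, had an adjusted p of 0.0823. Jak2, the receptor's kinase, had an amplitude of 0.11 ± 0.08 (adjusted p = 0.651).

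Among 20 growth hormone-dependent genes that are mostly higher in males, 1 was rhythmic, Elovl3, a fatty acid elongase with a peak at ZT23.5 and a 58.8-fold span. Bcl6, Onecut1 and the steroid enzyme gene Hsd3b5 had fitted spans of 8.01-fold, 5.54-fold and 3.94-fold that did not pass (adjusted p = 0.134, 0.2 and 0.304). Of 16 genes higher in females, 2 were rhythmic and both were higher in dark, Acot3, a thioesterase (10.8-fold, peak at ZT15.9), and Cyp2a4, a steroid hydroxylase (9.39-fold, peak at ZT15.6). The median amplitudes of these lists, 0.19 and 0.23, stood beside 0.16 over all features.

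Of 14 measured genes of the insulin and FOXO1 path, 6 were rhythmic and 3 were higher in light. None passed as higher in dark, where Pdk4 came nearest (light minus dark -0.57, adjusted p = 0.0891). Irs2, an insulin receptor substrate, peaked at ZT2.58 ± 0.708 h (3.93-fold, adjusted p = 0.00178) and G6pc, the glucose-6-phosphatase subunit, at ZT2.80 ± 0.657 h (3.09-fold, adjusted p = 0.000875), both close to the peak of Igfbp1 at ZT2.88. Like Igfbp1, both had their highest mean at ZT2 and their lowest at ZT14, with means of 9.91 and 7.78 for Irs2 and 16.96 and 15.12 for G6pc. Others peaked elsewhere: Pdk4, a brake on pyruvate use, at ZT22.4 (4.22-fold), Pck1, the gluconeogenic carboxykinase, at ZT9.50 (3.77-fold), and Pik3r1, a subunit of the kinase that insulin activates, at ZT14.2 (2.27-fold). The list's median amplitude was 0.31.

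Of 18 genes of the interleukin-6, STAT3 and acute phase path, 7 were rhythmic, 4 of the 18 were higher in light and 1 in dark. Il6ra, the receptor subunit, peaked at ZT13.6 with 3.82-fold, Saa1, an acute phase protein, at ZT11.6 with 3.35-fold and Junb, an immediate early factor, at ZT5.94 with 3.50-fold. Of 16 genes for fasting, glucocorticoid and stress signals known upstream of Igfbp1, 7 were rhythmic, 2 were higher in light and 3 in dark. Fkbp5 and Tsc22d3, which glucocorticoids induce, peaked at ZT14.2 (6.50-fold) and ZT17.7 (8.26-fold), beside ZT2.88 for Igfbp1. The part of insulin, glucocorticoid or other signals in the daily course of Igfbp1 was not tested. Per1 and Nr1d1, both of the clock, peaked at ZT13.4 (9.01-fold) and ZT6.83 (118-fold), and Bnip3, a hypoxia-induced gene, at ZT13.0 (3.12-fold).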

How the data were processed

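TRIzol RNA of 22 adiponectin-knockout livers, 100 ng each, was labelled with the WT Plus kit for Clariom S arrays, per the labels' protocols. The deposited values are 1 log2 value per feature and array, rounded to 2 decimals; the base was read from the range. How the authors corrected background, normalized and summarized is not given in the sources used. Arrays have no read depth, and their number limits the precision. Arrays of a time were taken as separate mice, 3 to 4 per time per the labels, so p-values rest on the spread between arrays, which may in part be technical. No 2 arrays were identical.

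Among 22206 features, 19572 had 1 symbol in the platform annotation and 2634 none. Models were fitted to all features by limma 3.58.1 (R 4.3.3), with no filter: a 24 h cosine and sine, and 6 time means with contrasts. P-values were adjusted by Benjamini-Hochberg over all features, threshold 0.05; the scripts were tested on simulated data. The members and lists were chosen with earlier results of these data known. Named were the 9 transcripts, Tff3, Adipoq, up to 5 genes of lowest adjusted p per list, and the 3 genes nearest to a rhythmic member of at least 2-fold span. Genes set beside Socs2, single cell type markers, and Jak2 and Igf1r, were named after their values were seen. Alternatives were quantile normalization, median centring, brighter features, a trended robust prior, array weights, the letter as a block, single arrays, whole times or the Tff3-high arrays left out, ranks, a threshold of 0.01 and added 12 h terms.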

Additional observations from a re-analysis of the deposited data

Results flagged for a closer look

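Among the 36 sets of 4 arrays at one time looked at for the 9 transcripts, 1 value stood far from the others of its set. Igfals measured 9.74 in ZT2d, and the nearest of the other ZT2 arrays measured 10.79, a gap that is 0.905 of the range of the set, beyond Dixon's critical value for 4 samples. Chance gives such a value in about 1 in 20 sets. ZT2d was the lowest ZT2 array in 5 of the 9 transcripts, which were Igfbp1, Igfals, Igf1, Ghr and Socs2, but ZT6a was lowest of its time in 5, ZT14a and ZT22b in 6 and ZT18a in 7.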

How the results depend on the processing

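Over 1074 values of the 9 transcripts under other settings, 1038 kept their side of the threshold, 4 lost a call and 32 gained one, and 0 called values changed direction. Steps between neighbouring times were counted only for transcripts that passed in some setting. The test among the times has no direction to change, and a rhythm counted as changed only when its peak moved by several hours. Among values that were not called, 10 of light minus dark changed sign, in Igfbp2 (-0.038 to -0.0061, against 0.06 as reported), Igfbp4 (0.01, against -0.08) and Socs3 (-0.0078 to -0.0022, against 0.09). Where a call changed, the cause was not tested. The number with a 24 h rhythm stayed at 2 or was 3, with Socs2 added by array weights (adjusted p = 0.0224) or by leaving out ZT2d, ZT6a or ZT22a. The number that differed among the times was 0 with ranks, where no feature at all was called, and 1 without the arrays of ZT14. Between light and dark it was 2 with array weights, 0 with ranks, and 1 to 2 with single arrays left out. For ZT10 minus ZT6 it was 0 to 2 with single arrays left out. For ZT18 minus ZT14 it was 1 (Igfals) over features above the median level or with array weights, and 0 to 1 with single arrays left out. For ZT2 minus ZT22 it was 1 (Igfbp1) over features above the median level, with array weights and without the 5 Tff3-high arrays, and 0 to 1 with single arrays left out. Igfals also passed among the times with brighter features (0.0387), a trended robust prior (0.0474), array weights (0.0111), and without the arrays of ZT2 (0.0422) or ZT6 (0.0291).

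Counts over all 22206 features moved more. The 24 h count of 1691 was 1065 with ranks and 830 at a threshold of 0.01. The count among times of 1363 was 0, 668 and, without the arrays of ZT10, 828. The light and dark count of 1170 was 603, 459 and, without the Tff3-high arrays, 617. Over other settings and single arrays left out, the steps ranged from 0 to 117 for ZT6 minus ZT2 (87 as reported), 0 to 315 for ZT10 minus ZT6 (142), 0 to 609 for ZT14 minus ZT10 (381), 0 to 489 for ZT18 minus ZT14 (121), 0 to 80 for ZT22 minus ZT18 (18) and 0 to 68 for ZT2 minus ZT22 (29).

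With the letter as a replicate block the number of rhythmic transcripts was 2, with adjusted p-values of 7.52e-05 for Igfbp1 and 0.00195 for Igfbp4. Deviations of arrays with the same letter had correlations between -0.236 and 0.226 (median 0.00278), and 5 of 22 arrays correlated best with their own letter, so the letters were not taken to pair mice.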
